A study of Mus musculus with 12 samples.

Results

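The genes described here are 33 markers of T cells and natural killer (NK) cells, chosen by name from general knowledge of these cells and not by a cut on their values, among 35434 genes counted in 12 mouse tumours. The list was made with earlier results of these data known. All 33 had counts in every tumour and all 33 were among the 15269 genes that passed the filter on low counts. The tumours grew under the skin of female BALB/c mice, 6 to 8 weeks old, from 4T1 cells, a line of triple-negative mammary carcinoma that metastasizes in immunocompetent hosts. Mice lived either at the ambient altitude of Lanzhou, approximately 1500 m, or in a hypobaric chamber set to 3500 m. They received vehicle or IOX2, a small molecule that blocks PHD2, an oxygen-dependent hydroxylase that limits hypoxia-inducible factors. The groups were MC (ambient, vehicle), MI (ambient, IOX2), HC (chamber, vehicle) and HI (chamber, IOX2), with 3 mice each and 1 tumour per library. All mice carried the same tumour line and were acclimatized for 3 days. IOX2 was injected into the peritoneum at 10 mg/kg once a day for 10 days from day 9 after inoculation, and tumours were taken on study day 22. Because the chamber housed only HC and HI mice, altitude and chamber housing cannot be told apart, and altitude stands for both in what follows.

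T cells recognise peptide antigen through a receptor whose signal is carried by the CD3 chains (Cd3d, Cd3e, Cd3g and Cd247), the kinases Lck and Zap70 and the adaptor Lat. The coreceptors CD4 and CD8 divide them into helper cells, which include Foxp3-expressing regulatory cells, and killer cells. NK cells need no antigen receptor and read activating and inhibitory receptors such as those encoded by Ncr1, Klrk1 and Klrd1. Both killer T cells and NK cells release perforin and granzymes into their targets and secrete interferon gamma. In tumours, the chemokine receptors CXCR3 and CXCR6 guide and hold such effector cells. Lower RNA from fewer cells of a type and lower RNA per cell cannot be told apart in whole tumours.

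The members took only 0.0179% (MC3) to 0.0431% (MI1) of each library's counts, from totals of 31661685 to 40019343 counts per library. The lowest member count was 5, for Klrb1c in HC3 and in HI1, and 5 of the 396 member values were under 10 counts. Levels below are CPM, the counts of a gene scaled by library size and composition. On that scale 3 counts, the upper limit where 0 are seen, correspond to 0.0728 to 0.0917 CPM, for counting error only. No pair of replicates differed as little as counting noise: the chi-square per degree of freedom was 13.5 to 148. Epithelial tumour genes, the defining markers of 4T1 cells, summed to 3428 to 4657 CPM in each of the 12 libraries.

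Compared per unit of gene length, in FPKM (fragments scaled by gene length and library total), cytotoxic genes were the most abundant members. Mean levels over the 12 tumours were 27.4 FPKM ± 11.2 (SD, n = 12) for Gzmb, which encodes granzyme B, and 16.0 FPKM ± 6.22 (SD) for Gzma, which encodes granzyme A. Nkg7, a protein of cytotoxic granules, followed at 10.1 FPKM ± 3.17 and Cd3g at 9.95 FPKM ± 4.18, and these neighbours did not differ beyond their spread. The CD8 chains lay in the upper part of the order, with Cd8a at 6.03 FPKM ± 2.1 and Cd8b1 at 4.17 FPKM ± 1.69. Cd4 stood lower at 1.08 FPKM ± 1.11. The lowest levels were those of Cd247 (0.330 FPKM ± 0.149), Foxp3 (0.221 FPKM ± 0.219) and Klrb1c (0.215 FPKM ± 0.128), the last of which encodes an NK receptor of the NKR-P1 family. Defining T cell and NK genes were counted in every tumour.

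One library stood apart. MI1, an ambient tumour given IOX2, had the highest level of all 12 libraries for 23 of the 33 members (69.7%), against 11.5% of all genes tested. Its ratio to the median of the other 11 libraries had a median of 1.99 over the members and 0.997 over all genes. The highest ratios were those of Cd4 (5.75), Foxp3 (5.35), the costimulatory receptor Cd28 (5.11), the inhibitory surface receptor Cd5 (4.46) and the costimulatory receptor Cd27 (3.91). The lowest were those of Klrk1 (1.37), the transcription factor Ikzf2 (1.33), Cxcr3 (1.16), Klrb1c (1.00) and the chemokine Xcl1 (0.349). MI1 was thus farthest above the median of the other tumours in Cd4, Foxp3 and costimulatory receptors. It was nearest to that median in Klrb1c and Cxcr3, and below it in Xcl1.

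MI1 also carried genes of other cells. B cell and plasma cell markers had a median ratio of 25.1 in MI1, which was the highest library for 12 of the 14 tested. Their summed level was 1389 CPM in MI1 and 557 to 688 CPM in the other libraries, and 0 of 19 listed genes were at 0 counts in MI1 against 2 to 5 elsewhere. Lymph node stroma and vessel markers had a median ratio of 5.66 (MI1 highest for 5 of 6), with a summed level of 429 CPM against 246 to 295 CPM. Both sums differed less than the median ratios, and the first includes Sdc1, which epithelial cells also make. They therefore do not measure B cell or lymph node RNA in the other tumours. The B cell gene Ms4a1 was at 27.9 CPM in MI1 and at most 0.339 CPM elsewhere, and Glycam1, a ligand made by lymph node vessels, at 45.1 CPM against at most 0.101 CPM; both were chosen after their values were seen. Genes of naive and homing lymphocytes had a median ratio of 2.89 (highest in MI1 for 8 of 8), macrophage markers 1.10 (0 of 12) and epithelial tumour markers 0.799 (0 of 10). The part of such cells in the results was not tested directly, and the counts below are given with and without MI1.

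**Figure D1:**
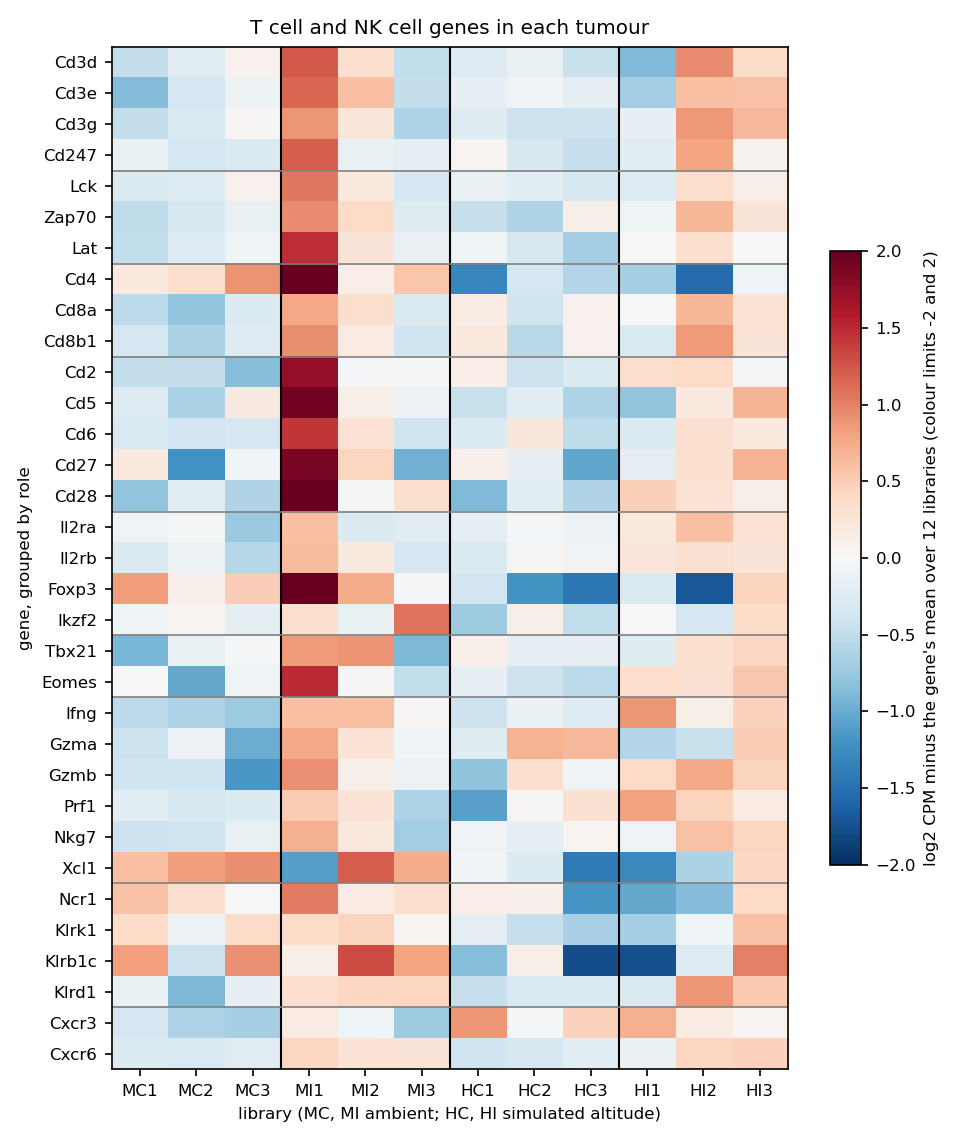
Heat map of the 33 genes (rows, grouped by role) in the 12 tumours (columns), coloured by log2 CPM minus the gene's mean over the libraries, with colour limits at -2 and 2. The column of MI1 is the darkest red across the receptor, coreceptor and costimulatory genes, and MI1 is the highest library for 23 of 33 members.

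To ask what IOX2 did to these genes, tumours of mice given IOX2 were compared with vehicle at each altitude and over both. T and NK genes stood higher with IOX2: 32 of 33 members had a positive log2 change at ambient altitude and 30 of 33 in the chamber. The median change was 0.76 at ambient altitude, 0.46 in the chamber and 0.60 averaged over both, against 0.01, 0.00 and 0.01 for all genes. Members share a tumour's cells, so they are not replicates. A score, the mean over members of log2 CPM minus each gene's mean, was -0.200, -0.308 and -0.158 in MC1 to MC3. It was 0.964, 0.288 and -0.132 in MI1 to MI3. In the chamber it was -0.264, -0.192 and -0.370 in HC1 to HC3 and -0.182, 0.205 and 0.349 in HI1 to HI3. MI3 and HI1 thus lay close to the vehicle tumours. No member passed an adjusted p of 0.05 in edgeR's quasi-likelihood test with Benjamini-Hochberg adjustment over all genes, where 0.0262%, 0% and 0.0393% of all genes did. DESeq2 called 0, 0 and 2 members, against 22, 18 and 11 genes of all. Limma-voom called 0 members in each, against 0, 0 and 4 genes of all. Without MI1 the members' counts in edgeR were again 0, against 0%, 0% and 0.0262% of all genes. At an unadjusted p under 0.05, 13 members were higher and 0 lower at ambient altitude (5.61% and 3.78% of all genes), 4 and 0 in the chamber (2.33% and 2.51%), and 19 and 0 in the average (2.70% and 2.42%).

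Without MI1, 30 of 33 members were higher at ambient altitude, with a median of 0.28, and 31 of 33 in the average, with a median of 0.39. The counts at an unadjusted p under 0.05 were then 6 higher and 0 lower at ambient altitude (5.69% and 1.25% of all genes), 9 and 0 in the chamber (2.37% and 2.88%), and 12 and 0 in the average (3.18% and 1.85%). The chamber comparison uses MI libraries only for the shared spread, and its median was then 0.45. Other single libraries moved these counts by more than 1.5 times: without MC1 the ambient count was 8 and without MI3 it was 23, without HI2 the chamber count was 2, and without HC3 the averaged count was 12. The shares of all genes in those fits are not given here, so these counts show only the dependence on single libraries.

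Among the chemokine receptors, Cxcr6, the receptor for CXCL16, gave the smallest p. Its level was 6.04, 5.96 and 6.28 CPM in MC1 to MC3 and 9.92, 8.84 and 8.72 CPM in MI1 to MI3. In the chamber it was 5.56, 5.86 and 6.34 CPM in HC1 to HC3 and 6.71, 9.92 and 10.1 CPM in HI1 to HI3. Every IOX2 tumour lay above every vehicle tumour, with HI1 closest to them. The log2 change was 0.59 (SE 0.16; edgeR adjusted p = 0.492) at ambient altitude and 0.59 (SE 0.16; adjusted p = 0.964) in the chamber. The averaged log2 change was 0.59 (SE 0.12; edgeR adjusted p = 0.647), and the value without MI1 was 0.56 (edgeR adjusted p = 0.740). DESeq2 called it (log2 0.59, adjusted p = 0.00211), as did edgeR without HI1 (0.67, adjusted p = 0.0440). The fit without HI1 drops the IOX2 tumour closest to vehicle, at 6.71 CPM. Leaving out 1 library gave 4 to 6 genes of all in the average. Group means were 6.09 CPM ± 0.170 (SD, n = 3) in MC, 9.16 ± 0.661 in MI, 5.92 ± 0.391 in the HC tumours and 8.89 ± 1.89 in HI.

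Ifng, the gene of interferon gamma, followed. Its level was 1.11, 1.03 and 0.967 CPM in MC1 to MC3 and 2.42, 2.40 and 1.62 CPM in MI1 to MI3. In the chamber it was 1.19, 1.45 and 1.32 CPM in HC1 to HC3 and 2.92, 1.73 and 2.19 CPM in HI1 to HI3. No IOX2 tumour overlapped the vehicle tumours at either altitude. The log2 change was 1.05 (SE 0.27; edgeR adjusted p = 0.492) at ambient altitude, 0.78 (SE 0.27; adjusted p = 0.964) in the chamber and 0.92 (SE 0.19; adjusted p = 0.759) in the average. DESeq2 called the average (log2 0.92, adjusted p = 0.00783). Without MI1 the averaged log2 change was 0.87.

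Over all 12 tumours, 3 members had 6 IOX2 tumours above 6 vehicle tumours, namely Cxcr6, Ifng and Cd28, and such a split was seen in 15 genes of all tested (0.0982%). Of Cd28, the costimulatory receptor for CD80 and CD86, the level was 0.982, 1.46 and 1.12 CPM in MC1 to MC3 and 7.48, 1.65 and 2.11 CPM in MI1 to MI3. In the chamber Cd28 was at 0.917, 1.45 and 1.12 CPM in HC1 to HC3 and at 2.35, 2.07 and 1.84 CPM in HI1 to HI3. Its ambient log2 change was 1.65 (SE 0.49; edgeR adjusted p = 0.492) and 0.68 without MI1. MI1 lay far above the other MI tumours. No member split the 12 tumours the other way, as 12 genes did (0.0786%).

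Among the cytotoxic effectors, Gzmb was at 29.0, 29.1 and 17 CPM in MC1 to MC3 and at 71.6, 41.1 and 35.3 CPM in MI1 to MI3. In the chamber it was at 21.8, 47.7 and 36.5 CPM in HC1 to HC3 and at 50.1, 64.8 and 52.0 CPM in HI1 to HI3. The IOX2 tumours lay above vehicle at each altitude, although HC2 exceeded MI2 and MI3. Prf1, which encodes perforin, did not separate: it was at 8.92, 8.38 and 8.60 CPM in MC, 14.8, 12.7 and 6.84 in MI, 4.89, 10.6 and 13.0 in the HC tumours and 18.1, 14.2 and 11.7 CPM in HI. Gzma was at 9.80, 12.2 and 6.59 CPM in MC and 22.3, 16.0 and 12.6 in MI, but at 11.1, 21.3 and 20.5 in the HC tumours and 8.77, 9.62 and 18.6 CPM in HI. It stood higher with IOX2 at ambient altitude and lower in the chamber. Between the vehicle groups its log2 change with altitude was 0.89 (SE 0.35; edgeR adjusted p = 0.351), and MC2 lay above HC1.

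Of the NK receptors, Klrd1, which encodes CD94, stood higher with IOX2. It was at 2.82, 1.69 and 2.80 CPM in MC1 to MC3, 3.97, 4.17 and 4.22 in MI1 to MI3, 2.29, 2.54 and 2.55 in HC1 to HC3 and 2.56, 5.77 and 4.51 CPM in HI1 to HI3. HI1 lay at the top of the HC values, so the chamber groups were barely apart. The log2 change was 0.80 (SE 0.29; edgeR adjusted p = 0.964) in the chamber and 0.78 (SE 0.20; adjusted p = 0.759) in the average. Ncr1, which encodes the activating receptor NKp46, and Klrb1c gave no such pattern, at 0.260 to 1.20 CPM and 0.130 to 1.09 CPM over the 12 tumours. The groups did not overlap for 8 members at ambient altitude, all higher with IOX2 (4.75% of all genes): Cd8a, Cd2, Cd28, Ifng, Gzma, Gzmb, Klrd1 and Cxcr6. In the chamber they did not overlap for 10 members, again all higher (5.74%): Cd3g, Lat, Cd28, Il2ra, Il2rb, Eomes, Ifng, Gzmb, Klrd1 and Cxcr6. These splits are in CPM. In FPKM, Cd8a and Gzma overlapped at ambient altitude, with MI from 4.31 and 13.2 and MC up to 4.62 and 13.8. Cd3g, Lat and Klrd1 overlapped in the chamber, with HI from 7.99, 1.95 and 1.97 and HC up to 8.12, 1.97 and 2.02. Members lower without overlap numbered 0 at each altitude (6.32% and 5.61% of all genes). Without MI1 the counts were 8 higher and 0 lower at ambient altitude (8.34% and 8.48%), 9 and 0 in the chamber (5.21% and 6.23%), and 3 and 0 over both altitudes (0.21% and 0.19%).

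The receptor complex and its signalling genes stood higher at both altitudes without separating in most cases. All 4 CD3 genes and all 3 signalling genes had a positive change at each altitude. Cd3e was at 2.75, 3.94 and 4.66 CPM in MC1 to MC3, 11.1, 7.65 and 3.62 in MI1 to MI3, 4.46, 4.72 and 4.42 in HC1 to HC3 and 3.11, 7.6 and 7.54 CPM in HI1 to HI3. MI3 and HI1 lay within or below the vehicle tumours for Cd3e. Cd3g was at 8.04, 7.05 and 7.09 CPM in HC1 to HC3 and 8.43, 17.2 and 14.9 CPM in HI1 to HI3, with no overlap in CPM. At ambient altitude Cd3g was at 6.80, 7.67 and 9.62 CPM in MC1 to MC3 and 17.4, 11.2 and 6.16 CPM in MI1 to MI3, with overlap. Over the 12 tumours Cd3d ran from 1.67 to 7.2 CPM and Cd247, the zeta chain, from 1.56 to 4.93 CPM. The kinase genes Lck and Zap70 ran from 9.44 to 24.8 CPM and from 2.43 to 7.2 CPM. Lat was at 2.00 to 3.00 CPM in HC and 3.16 to 4.00 CPM in HI, and at 2.27 to 3.00 CPM in MC and 2.88 to 8.83 CPM in MI.

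Cd8a, a coreceptor chain of killer T cells, was at 12.5, 10.4 and 14.6 CPM in MC1 to MC3, 30.7, 22.7 and 14.6 in MI1 to MI3, 19.8, 13.6 and 19.1 in HC1 to HC3 and 17.8, 28.5 and 21.5 CPM in HI1 to HI3. MI3 met MC3 at the edge of its group. Its partner chain Cd8b1 was at 3.71 to 4.83 CPM in MC, 4.39 to 11 in MI, 3.93 to 6.67 in the HC tumours and 4.70 to 10.4 CPM in HI, with overlap at both altitudes.

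The interleukin 2 receptor separated in the chamber. Il2rb, the chain shared with the interleukin 15 receptor, was at 28.0, 34.6 and 32.5 CPM in HC1 to HC3 and 40.5, 42.5 and 40.9 CPM in HI1 to HI3. At ambient altitude it was at 27.9, 31.9 and 23.1 CPM in MC1 to MC3 and 52.8, 39.2 and 27.1 CPM in MI1 to MI3, where MI3 lay below MC1 and MC2. Il2ra, the high-affinity chain, was at 4.04 to 4.54 CPM in the HC tumours and 5.38 to 7.01 CPM in HI, and at 2.77 to 4.52 CPM in MC and 3.84 to 7.07 CPM in MI. The effector transcription factor gene Eomes was at 1.14 to 1.47 CPM in the HC tumours and 2.02 to 2.39 CPM in HI, and at 0.807 to 1.64 CPM in MC and 1.17 to 4.63 CPM in MI. Tbx21, which encodes its relative T-bet, overlapped at both altitudes, at 0.655 to 1.31 CPM in vehicle tumours and 0.656 to 2.28 CPM in IOX2 tumours. The adhesion receptor Cd2 was at 1.88 to 2.45 CPM in MC and 3.34 to 11.5 CPM in MI, and at 2.54 to 3.76 CPM in the HC tumours and 3.34 to 4.47 CPM in HI. Over the 12 tumours Cd5 ran from 1.02 to 6.66 CPM, the related receptor gene Cd6 from 2.78 to 10.6 CPM and Cd27 from 0.505 to 4.37 CPM. Nkg7 ran from 4.87 to 12.8 CPM. Each of these 4 genes overlapped between IOX2 and vehicle at both altitudes.

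**Figure D2:**
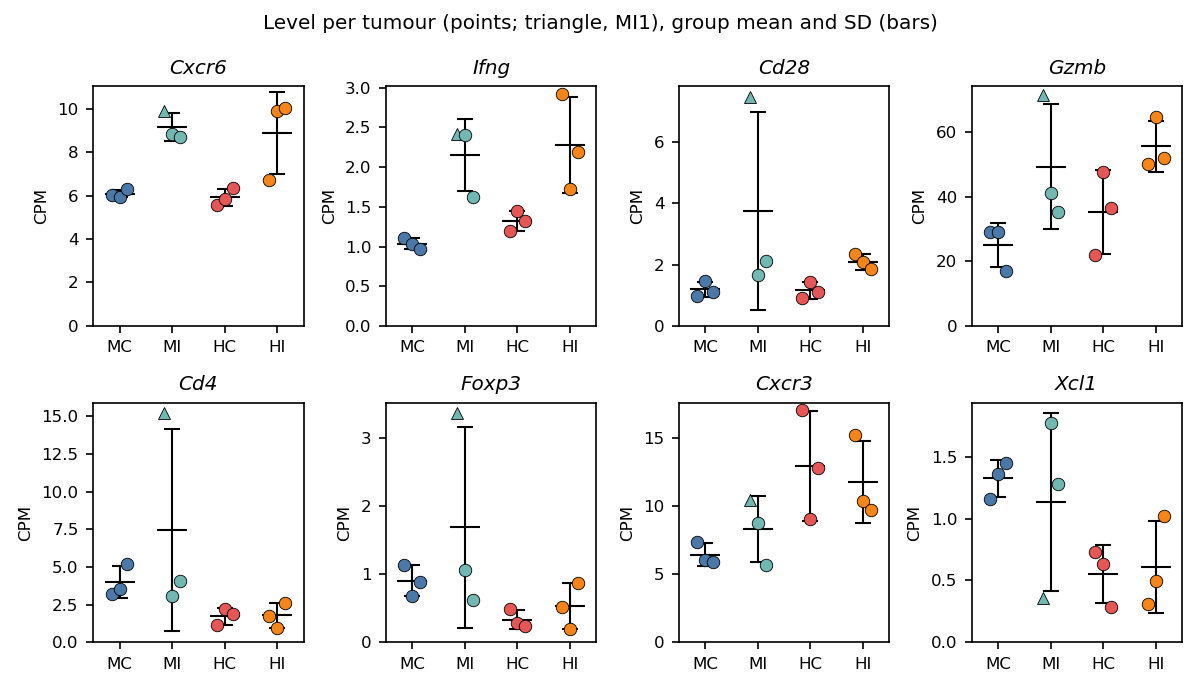
Level (CPM, vertical axis from 0) of 8 members in each tumour by group, with group mean and SD as bars and MI1 as a triangle. Cxcr6, Ifng and Cd28 lie higher in all 6 IOX2 tumours than in all 6 vehicle tumours, and Cd4 lies lower in all 6 chamber tumours.

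**Figure D3:**
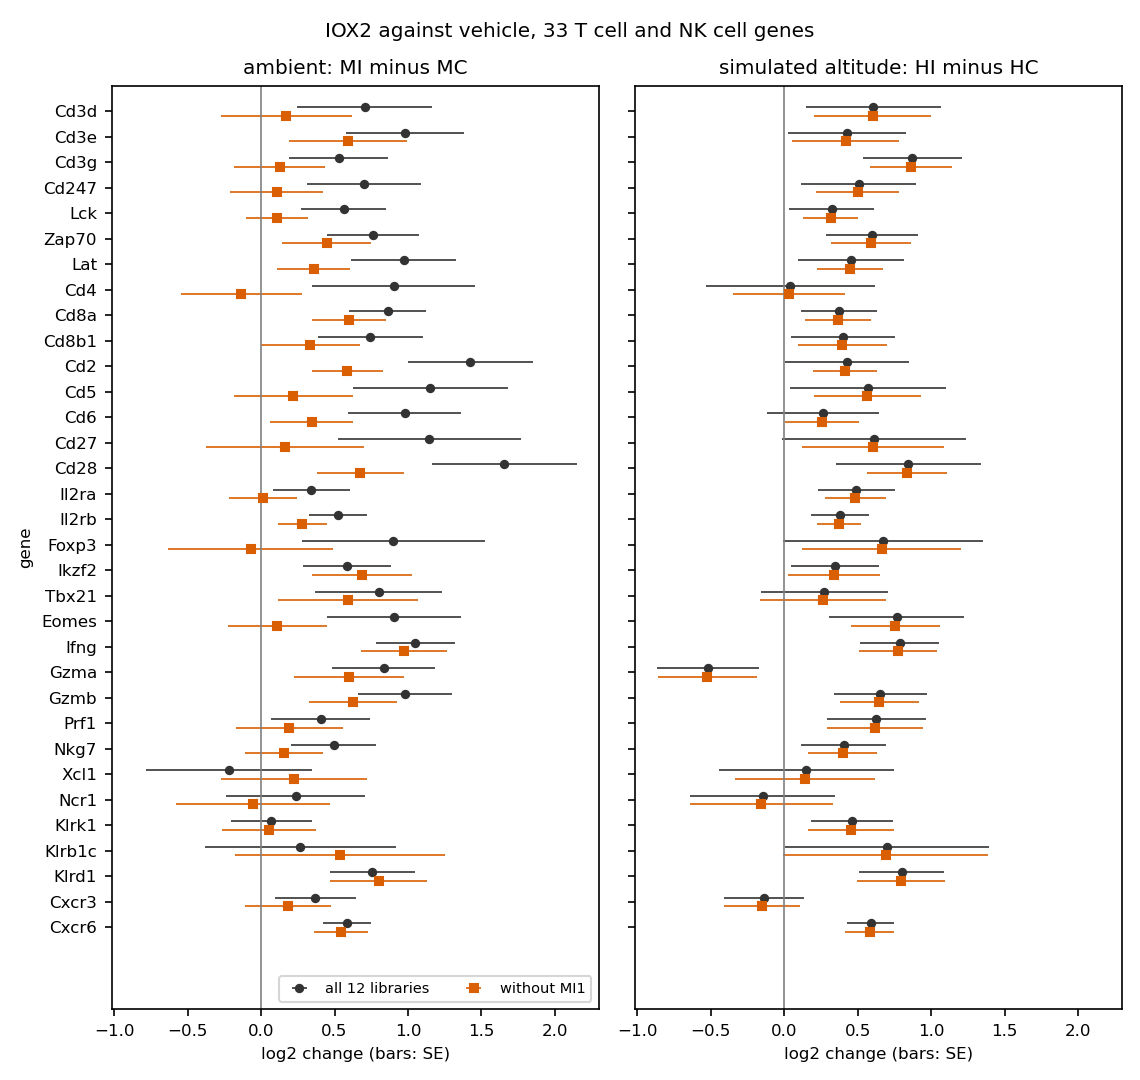
Log2 change with IOX2 (horizontal axis, bars are SE) for the 33 members at ambient altitude (left) and in the chamber (right), from all 12 libraries and without MI1. At ambient altitude 32 of 33 lie above 0, and the median of 0.76 falls to 0.28 without MI1.

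The upstream sequences of 4 members described here were searched for recognition letters of RUNX factors. These factors act in killer T cell and NK cell differentiation. The sequences come from RefSeq on GRCm38.p6, an older build than that of the counts. There, 25 of the 33 members had an entry, in 30 windows, while Cd28 and Cd4 had none and could not be shown. Each runs over the 250 bases before the gene start, on the gene's strand, with the letters TGTGGT or its reverse complement in capitals. Cxcr6 is at chr9:123806227-123806476 (plus strand), Ifng at chr10:118440796-118441045 (plus), Gzmb at chr14:56262335-56262584 (minus) and Cxcr3 at chrX:101734148-101734397 (minus).
Cxcr6: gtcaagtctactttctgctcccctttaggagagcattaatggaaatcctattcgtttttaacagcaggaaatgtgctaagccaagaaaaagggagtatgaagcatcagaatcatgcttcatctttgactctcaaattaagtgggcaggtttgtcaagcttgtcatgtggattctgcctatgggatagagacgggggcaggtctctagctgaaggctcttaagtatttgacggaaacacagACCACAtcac
Ifng: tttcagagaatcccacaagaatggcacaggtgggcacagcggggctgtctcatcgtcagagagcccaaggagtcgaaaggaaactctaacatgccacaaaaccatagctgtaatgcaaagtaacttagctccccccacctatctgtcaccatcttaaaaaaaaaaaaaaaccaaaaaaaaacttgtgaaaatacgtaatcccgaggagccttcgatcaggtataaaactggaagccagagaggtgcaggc
Gzmb: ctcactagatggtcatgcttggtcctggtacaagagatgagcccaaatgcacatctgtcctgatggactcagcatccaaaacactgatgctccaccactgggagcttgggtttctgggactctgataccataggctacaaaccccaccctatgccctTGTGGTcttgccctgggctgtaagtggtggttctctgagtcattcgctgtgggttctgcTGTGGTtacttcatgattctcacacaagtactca
Cxcr3: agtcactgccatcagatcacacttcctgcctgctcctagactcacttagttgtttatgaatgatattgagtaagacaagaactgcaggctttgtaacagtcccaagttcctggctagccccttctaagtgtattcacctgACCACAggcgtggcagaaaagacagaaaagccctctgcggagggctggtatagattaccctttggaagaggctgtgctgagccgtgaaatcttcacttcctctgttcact
Cxcr6 and Cxcr3 hold 1 match each, Gzmb 2 and Ifng 0. Over the members, 13 of 30 windows (43.3%) held TGTGGT on either strand, against 14% of 32851 promoters of the same length. The hypoxia response core, ACGTG or GCGTG on either strand, was in 9 of 30 windows (30.0%) against 38.6% of all promoters. The interferon gamma activated sequence TTCNNNGAA was in 4 of 30 (13.3%) against 7.02%. The T-box letters TCACACCT, for T-bet and Eomes, were in 1 of 30 (3.33%) against 1.12%. The motifs were chosen after expression values were seen. A match describes the letters only.

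The comparison of chamber with ambient tumours asked what altitude did to these genes. The members did not move one way: 17 were higher and 16 lower with vehicle (median log2 change 0.01, against -0.01 for all genes), and 10 were higher and 23 lower with IOX2 (median -0.27, against -0.01). The second of these turned round without MI1, to 24 higher and 9 lower with a median of 0.14. No member passed in edgeR with vehicle, with IOX2 or in the average, where 0%, 0% and 0.498% of all genes passed. DESeq2 called 1, 1 and 3 members, against 307, 379 and 845 genes of all. Limma-voom called 0 members in each, against 0, 0 and 20 genes of all. With the replicate number as a block, edgeR called 0, 0 and 1 members and 13, 0 and 155 genes of all tested. In edgeR without MI1, 0 members and 0%, 0% and 0.0655% of all genes passed. At an unadjusted p under 0.05, 2 members were higher and 1 lower with vehicle (6.14% and 5.84% of all genes), 0 and 2 with IOX2 (6.77% and 8.43%), and 1 and 4 in the average (8.64% and 8.65%). Without MI1 these became 2 and 4 (6.76% and 5.78%), 2 and 2 (3.72% and 8.03%), and 4 and 3 (8.02% and 8.63%). The averaged count over both directions also fell from 5 to 3 without HC3, without HI1 or without HI2, where shares of all genes are not given here.

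Cd4 stood lower in the chamber. It was at 3.20, 3.56 and 5.22 CPM in MC1 to MC3 and 15.2, 3.08 and 4.11 CPM in MI1 to MI3. In the chamber it was at 1.13, 2.21 and 1.87 CPM in HC1 to HC3 and 1.77, 0.962 and 2.64 CPM in HI1 to HI3. All 6 chamber tumours lay below all 6 ambient tumours, as they did for 0.897% of all genes. The averaged log2 change was -1.63 (SE 0.40; edgeR adjusted p = 0.0907) and -1.10 without MI1 (edgeR adjusted p = 0.124). With IOX2 it was -2.06 (SE 0.58; edgeR adjusted p = 0.214), and -1.02 without MI1 (adjusted p = 0.423). Without MI2 edgeR called it in the average (-1.81, adjusted p = 0.0436) and with IOX2 (-2.43, adjusted p = 0.0426). That fit gives more weight to MI1, at 15.2 CPM. Leaving out 1 library gave 2 to 339 genes of all in the average and 0 to 520 with IOX2. DESeq2 called Cd4 in the average (-1.63, adjusted p = 0.00230) and with IOX2 (-2.07, adjusted p = 0.0159). Some dendritic cells also make Cd4. Markers of dendritic cells stood lower with altitude in 10 of 10 cases, 7 of them at an unadjusted p under 0.05 (8.65% of all genes), and in 10 of 10 with 3 without MI1 (8.63%). Their summed level was 118 to 127 CPM in MC, 130 to 185 in MI, 84.9 to 131 in the HC tumours and 83.4 to 130 CPM in HI, and 0 of 10 were at 0 counts in any library. Their part in the Cd4 value was not tested.

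Foxp3, which marks regulatory T cells, also stood lower in the chamber. It was at 1.13, 0.681 and 0.891 CPM in MC1 to MC3, 3.36, 1.07 and 0.627 in MI1 to MI3, 0.489, 0.279 and 0.234 in HC1 to HC3 and 0.522, 0.197 and 0.871 CPM in HI1 to HI3. The lowest of these values rest on few counts. In HI2, 3 counts correspond to 0.0740 CPM, and the lowest member count was 8. The vehicle groups did not overlap, as for 11.4% of all genes in this direction, whereas HI3 lay above MI3. The averaged log2 change was -1.55 (SE 0.47; edgeR adjusted p = 0.138) and -1.06 without MI1 (adjusted p = 0.226). With IOX2 it was -1.66 (SE 0.65; edgeR adjusted p = 0.282), and -0.69 without MI1 (adjusted p = 0.623). DESeq2 called Foxp3 in the average only (-1.56, adjusted p = 0.0279). Ikzf2, which encodes Helios, a factor of regulatory T cells and other lymphocytes, did not separate and ranged from 8.74 to 30.4 CPM.

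Cxcr3, the receptor for CXCL9 and CXCL10, stood higher in the chamber. It was at 7.38, 6.06 and 5.88 CPM in MC1 to MC3, 10.5, 8.79 and 5.67 in MI1 to MI3, 17, 9.03 and 12.8 in HC1 to HC3 and 15.2, 10.4 and 9.68 CPM in HI1 to HI3. With vehicle the groups did not overlap, as for 10.3% of all genes in this direction. With IOX2 they did overlap, since MI1 exceeded HI2 and HI3. The log2 change was 1.01 (SE 0.28; edgeR adjusted p = 0.249) with vehicle and 0.75 (SE 0.19; adjusted p = 0.0976) in the average. DESeq2 called both (1.01, adjusted p = 0.0272 and 0.75, adjusted p = 0.00772). With the replicate number as a block, edgeR called the average (0.74, adjusted p = 0.0426).

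Xcl1, a chemokine that attracts cross-presenting dendritic cells, stood lower: 1.16, 1.36 and 1.45 CPM in MC1 to MC3, 0.356, 1.77 and 1.28 in MI1 to MI3, 0.734, 0.634 and 0.286 in HC1 to HC3 and 0.313, 0.493 and 1.02 CPM in HI1 to HI3. MI1 lay with the chamber tumours. The averaged log2 change was -1.08 (SE 0.41; edgeR adjusted p = 0.215), and -1.30 without MI1 (adjusted p = 0.135). Klrk1, which encodes NKG2D, was at 7.81, 5.58 and 7.89 CPM in MC1 to MC3 and 5.26, 4.39 and 3.84 CPM in HC1 to HC3, with a log2 change of -0.66 (SE 0.28; edgeR adjusted p = 0.389). With IOX2 it was at 7.78, 8.25 and 6.30 CPM in MI and 3.81, 5.67 and 9.06 CPM in HI, which overlapped. With vehicle the groups did not overlap for Cd2, Ifng and Cxcr3, higher in the chamber (10.3% of all genes), nor for Cd4, Foxp3, Xcl1 and Klrk1, lower (11.4%). With IOX2 they did not overlap for Cd4, lower (6.61%), and for 0 members higher (8.02%). Over all 12 tumours 0 members stood higher without overlap (1.05%). Without MI1 the counts were 3 higher and 4 lower with vehicle (11% and 10.8%), 5 and 2 with IOX2 (10.3% and 10.6%), and 1 and 2 over both treatments (1.36% and 1.27%). Ncr1 had a log2 change of -0.90 with IOX2 (SE 0.48; edgeR adjusted p = 0.381).

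**Figure D4:**
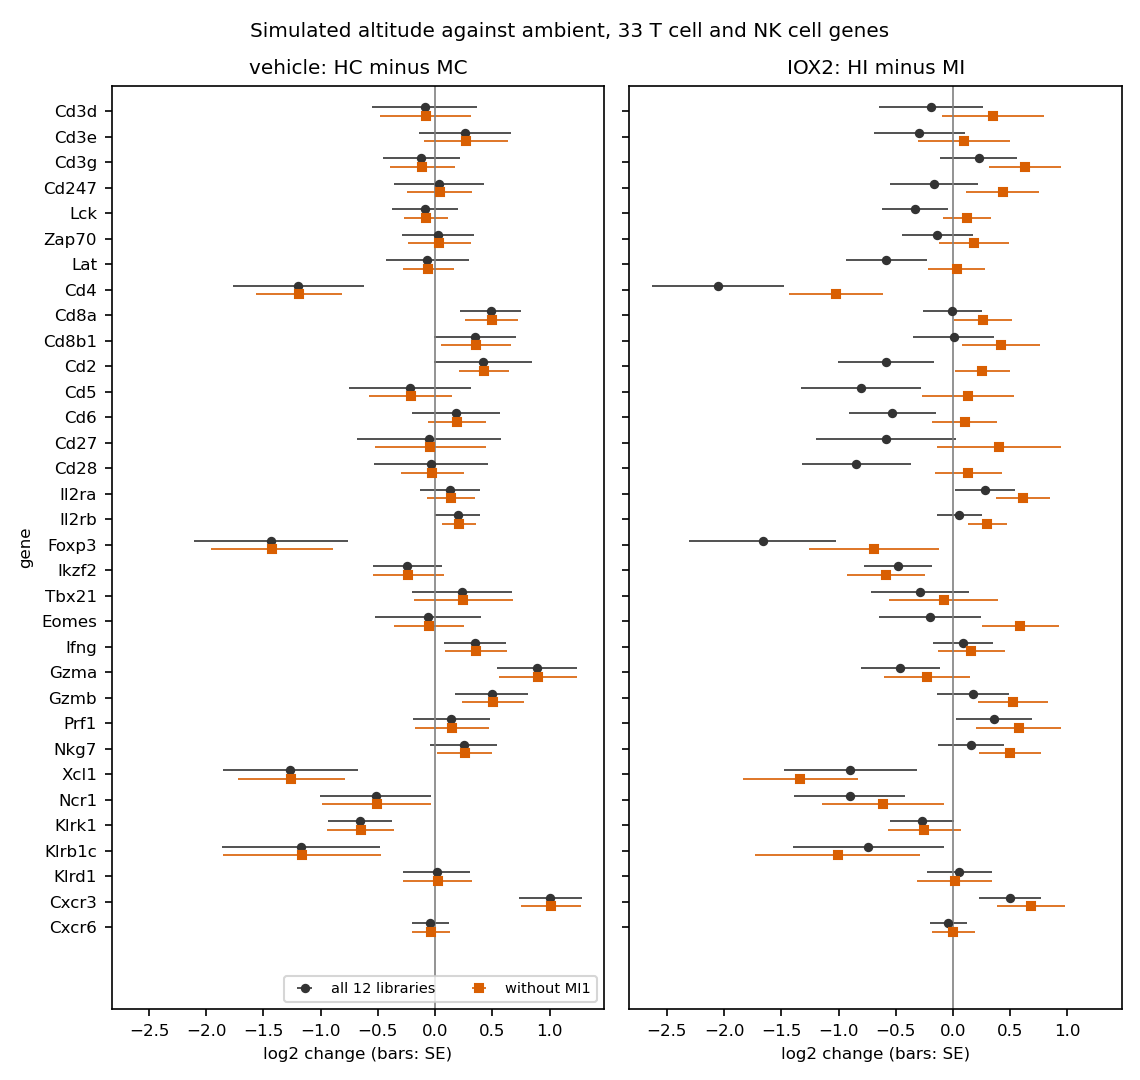
Log2 change with altitude (horizontal axis, bars are SE) for the 33 members with vehicle (left) and with IOX2 (right), from all 12 libraries and without MI1. Cd4, Foxp3 and Xcl1 lie below 0 and Cxcr3 above 0 in both panels, and the median with IOX2 is -0.27 with MI1 and 0.14 without it.

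Ratios within a tumour compare genes of one library and so do not depend on its total. The ratio of Cd8a to Cd4, in FPKM, was 4.32, 3.25 and 3.10 in MC1 to MC3 and 2.24, 8.18 and 3.94 in MI1 to MI3. In the chamber it was 19.4, 6.84 and 11.3 in HC1 to HC3 and 11.1, 32.9 and 9.05 in HI1 to HI3. Only MI2 among ambient tumours exceeded any chamber tumour. The ratio of Foxp3 to Cd3e ran from 0.0668 to 0.159 in MC and from 0.0539 to 0.117 in MI. It ran from 0.0204 to 0.0423 in HC and from 0.010 to 0.0649 in HI, so that only HI1 in the chamber exceeded an ambient tumour. The lowest chamber values of Foxp3 rest on few counts. The ratio of Cd3e to the pan-leukocyte gene Ptprc did not order the groups: 0.0922, 0.170 and 0.197 in MC, 0.204, 0.322 and 0.0737 in MI, 0.250, 0.194 and 0.263 in the HC tumours and 0.166, 0.385 and 0.243 in HI.

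Cytotoxic and chemokine receptor genes were also set against Cd3e. The ratio of Gzmb to Cd3e overlapped between all groups: it was 3.67 to 10.6 in MC, 5.40 to 9.78 in MI, 4.90 to 10.1 in the HC tumours and 6.91 to 16.2 in HI. For Cxcr6 to Cd3e, the ranges were 1.08 to 1.76 in MC, 0.717 to 1.93 in MI, 0.995 to 1.15 in the HC tumours and 1.05 to 1.73 in HI. The ratio of Ifng to Cd3e lay between 0.260 and 0.563 in all tumours but HI1, where it was 1.18.

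**Figure D5:**
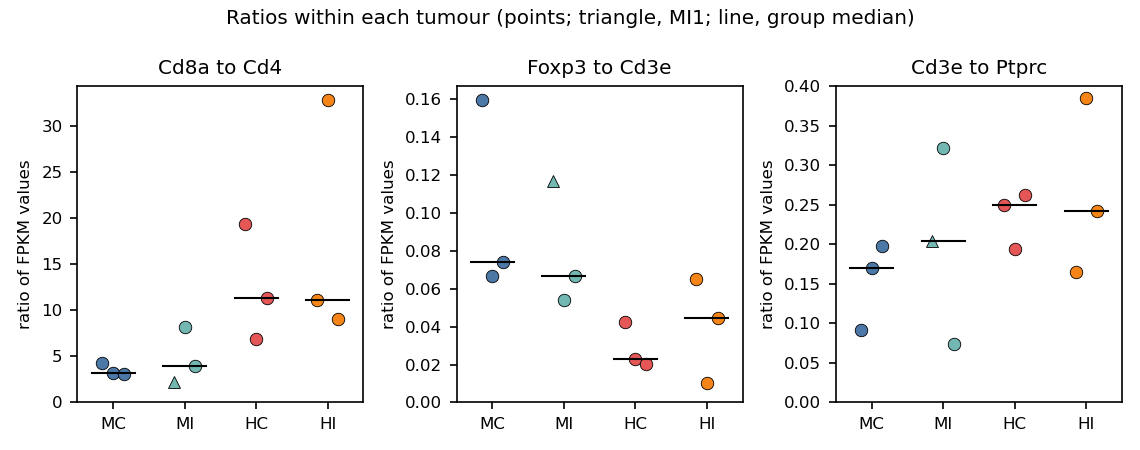
Ratio of FPKM values within each tumour (vertical axis from 0) for Cd8a to Cd4, Foxp3 to Cd3e and Cd3e to Ptprc, by group, with the median as a line and MI1 as a triangle. Cd8a to Cd4 is 6.84 or more in every chamber tumour and 8.18 or less in every ambient one.

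The interaction of altitude and IOX2 asked whether the IOX2 changes differed between altitudes. No member passed in edgeR (0% of all genes), DESeq2 (30 genes of all) or limma-voom (0 genes of all). At an unadjusted p under 0.05, 0 members had a higher and 1 a lower chamber change (4.04% and 4.17% of all genes). That member was Gzma, with a log2 difference of -1.35 (SE 0.49; edgeR adjusted p = 0.596). Cd2 (-1.0, SE 0.60, edgeR adjusted p = 0.632) and Cd8a (-0.49, SE 0.37, adjusted p = 0.669) were next. Without MI1 the counts were 0 and 1 (1.77% and 3.08%). The median of -0.24 over the members turned to 0.09 without MI1.

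Other genes of the same pathways were described from lists. With IOX2, averaged over altitudes, 19 of 22 other T cell receptor pathway genes and 19 of 20 other cytotoxic and NK genes stood higher, with medians of 0.38 and 0.42, and 16 of 22 and 18 of 20 without MI1. None passed in edgeR. At an unadjusted p under 0.05, 7 and 5 were higher and 0 lower (2.70% and 2.42% of all genes), and 5 and 4 were higher without MI1 (3.18%). The inhibitory NK receptor gene Klrc1 (log2 0.84, SE 0.22, edgeR adjusted p = 0.759) and Bcl11b, a factor of T cell commitment (1.44, SE 0.32, adjusted p = 0.759), were among the 3 with the smallest p in their lists. Of 15 interferon gamma targets, 14 stood higher, with a median of 0.31 and 8 at an unadjusted p under 0.05 (2.70% of all genes), and 14 with 4 without MI1 (3.18%). Cxcl9, a ligand of CXCR3, had a log2 change of 0.67 (SE 0.22; adjusted p = 0.759).

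With altitude, 3 genes of these lists fell and passed in edgeR. Lef1, a factor of naive T cells, fell by 1.95 on the log2 scale (SE 0.29; edgeR adjusted p = 0.0276), from 3.88 to 9.18 CPM in ambient tumours to 0.809 to 2.57 CPM in the chamber. Il12b, which encodes the p40 chain of interleukin 12, fell by 2.60 (SE 0.45; adjusted p = 0.0412), from 0.437 to 1.2 CPM in ambient tumours to 0 to 0.249 CPM in the chamber. Cd86, a ligand of CD28, fell by 0.66 (SE 0.12; edgeR adjusted p = 0.0436). None of the 3 passed without MI1, with log2 changes of -1.78, -2.49 and -0.64 (edgeR adjusted p = 0.0607, 0.0967 and 0.0989). Sdc1, listed with plasma cells and also made by epithelial cells, rose by 0.32 (SE 0.06; edgeR adjusted p = 0.0494), and did not pass without MI1 (adjusted p = 0.103). Of the 13 ligand and cytokine genes tested, 10 stood lower with altitude. At an unadjusted p under 0.05, 7 of 12 macrophage and 7 of 10 dendritic cell markers stood lower (8.65% of all genes), and 5 and 3 without MI1 (8.63%). The macrophage markers did not all go this way: with vehicle, Mrc1 stood higher in the chamber (log2 1.06, SE 0.27, edgeR adjusted p = 0.231). Pan-leukocyte genes stood lower with altitude in 8 of 8 cases (median -0.33, and 7 of 8 with -0.21 without MI1) and epithelial tumour genes higher in 9 of 10 (median 0.16). With IOX2 the same lists had medians of 0.14 and -0.10, and without MI1 0.02 and -0.06.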

How the data were processed

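RNA sequencing of 12 tumours, 3 mice in each of 4 groups, was deposited as a table of raw read counts per gene and a table of FPKM values made by the authors. The submitters' processing notes list HISAT2 2.1.0, HTSeq 0.11.2, fastp 0.20.1, R 3.5.1 and DESeq2 1.22.2 and the genome build GRCm39. What each tool did, which annotation was used and whether strand was kept is not given in the sources used here. FPKM values as deposited are counts scaled by gene length and library total: the implied lengths were whole within 0.01 base for 100% of values.

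The 33 members and the other gene lists were chosen with earlier results of these data known. Counts were tested with edgeR 4.0.16 in R 4.3.3 (TMM factors, filterByExpr, quasi-likelihood fit of all 12 libraries, 1 mean per group), with Benjamini-Hochberg adjustment over 15269 genes. Replicates are separate mice; 3 against 3 allow no exact p below 0.1. In each comparison the 3 members with the smallest p are named with their statistics, as are the 5 highest and 5 lowest ratios of MI1 to the other libraries and up to 3 genes of another list; the other members are given by levels. Statistics for Xcl1 and the within-tumour ratios were chosen after their values were seen. Alternatives used DESeq2 1.42.0, limma 3.58.1 (voom, and on log2 of FPKM plus 0.1 or 1), other filters and size factors, a replicate block and each library left out. The labels name no pairing; of the replicate numbers, those of MC and HC deviated together in all 3 pairs (correlations 0.278, 0.153 and 0.209), and those of the other group pairs did not all exceed 0.1.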

Additional observations from a re-analysis of the deposited data

How the results depend on the processing

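No member passed in the main edgeR fit in any of the 7 comparisons. The same held with limma-voom, DESeq2 size factors, other low-count filters and FPKM values. Fits of only the groups compared also called no member. They were run for altitude with each treatment and for IOX2 at each altitude, not for the averages or the interaction. DESeq2 called 1 member with altitude under vehicle, 1 with altitude under IOX2, 3 in the altitude average and 2 in the IOX2 average. Leaving out 1 library gave 0 to 1 members with altitude under IOX2 (1 without MI2), 0 to 1 in the altitude average (1 without MI2) and 0 to 1 in the IOX2 average (1 without HI1). The replicate block gave 1 member in the altitude average, Cxcr3 (log2 0.74, adjusted p = 0.0426), and changed no other member's call; over all genes it gave 155 against 76 there, 13 against 0 for altitude with vehicle and 3 against 0 for IOX2 in the chamber. Of 18 correlations between same-numbered libraries, from -0.192 to 0.313, 11 were over 0.1, and 6 of 12 libraries matched best with their own number. Over all genes, DESeq2 called 307 genes for altitude with vehicle and 379 with IOX2, where edgeR called 0 in both, 845 in the altitude average, 22 for IOX2 at ambient altitude (edgeR 4), 18 in the chamber (edgeR 0), 11 in the IOX2 average (edgeR 6) and 30 in the interaction (edgeR 0). Without any filter edgeR called 166 genes in the altitude average, limma-voom 20, and leaving out 1 library gave 2 to 339. For altitude with IOX2, leaving out 1 library gave 0 to 520 genes. The causes were not tested. The lowest counts were those of Klrb1c, and 5 of 396 member values were under 10 counts.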
